A study of Danio rerio with 10 samples.

Results

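Hox genes encode homeodomain transcription factors that lie in clusters, and their order along a cluster matches the order of their expression along the head-to-tail axis. They are numbered by paralogue group: low numbers pattern the hindbrain and pharyngeal arches, middle numbers the spinal cord and trunk mesoderm, and high numbers the posterior trunk, tail and fins. Forebrain, midbrain and eye lie in front of the Hox-expressing part of the body. Hox proteins bind DNA together with Pbx and Meis cofactors, retinoic acid helps to switch the clusters on, and Polycomb and Trithorax proteins keep their states.

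The members are the genes whose single symbol in the platform annotation begins with hox, a cluster letter from a to d and a digit, each shown by its probe set with the highest mean. They number 42 of the 8793 genes named on the array, with 59 probe sets between them, and stand for 42 of 49 protein-coding Hox genes in the RefSeq table. The other genes, hoxb1b, hoxc10a, hoxc12a, hoxd12a, hoxa13a, hoxb13a and hoxc13b, were not analysed here. The members come from 7 clusters (hoxaa, hoxab, hoxba, hoxbb, hoxca, hoxcb and hoxda) and from every paralogue group from 1 to 13.

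RNA from pools of whole zebrafish was hybridized to 10 Affymetrix arrays, 1 pool per array. All pools came from matings of heterozygous carriers of the cz3 allele of earl grey (egy) in the AB/WIK background, with embryos kept at 28 °C. Their appearance decided whether embryos joined a mutant pool, in which sart3, the p110 orthologue, is defective, or a pool of siblings. There were 2 sibling and 2 mutant pools of day 3 (72 hours after fertilization) and 3 of each of day 5 (120 hours). Because the allele is recessive, the siblings may include heterozygous carriers as well as wild types.

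Some labels conflict. The strain label of sibling replicate 2 of day 3 reads mutant, the source names of sibling replicate 2 and mutant replicate 3 of day 5 read day 4, and the design text also gives day 4 for the older pools, so titles were followed throughout. sart3 signals lay between 1771 and 2586 in the sibling pools, the one with the conflicting strain label included, and between 105 and 809 in the mutant pools. The 809 came from mutant replicate 3 of day 5, whose source name reads day 4. The other day 5 mutant pools had 105 and 132, and the day 3 mutant pools had 462 and 648. The cause of this difference was not tested. Across arrays, the median signal ranged from 596 to 671. The tissues expected of whole larvae were present: neuron, muscle, skin, erythrocyte, liver, photoreceptor, cartilage and fin markers on the array all stood above the low-signal limit of 223 on every array, as did 2 of 3 pancreas markers.

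**Figure D1:**
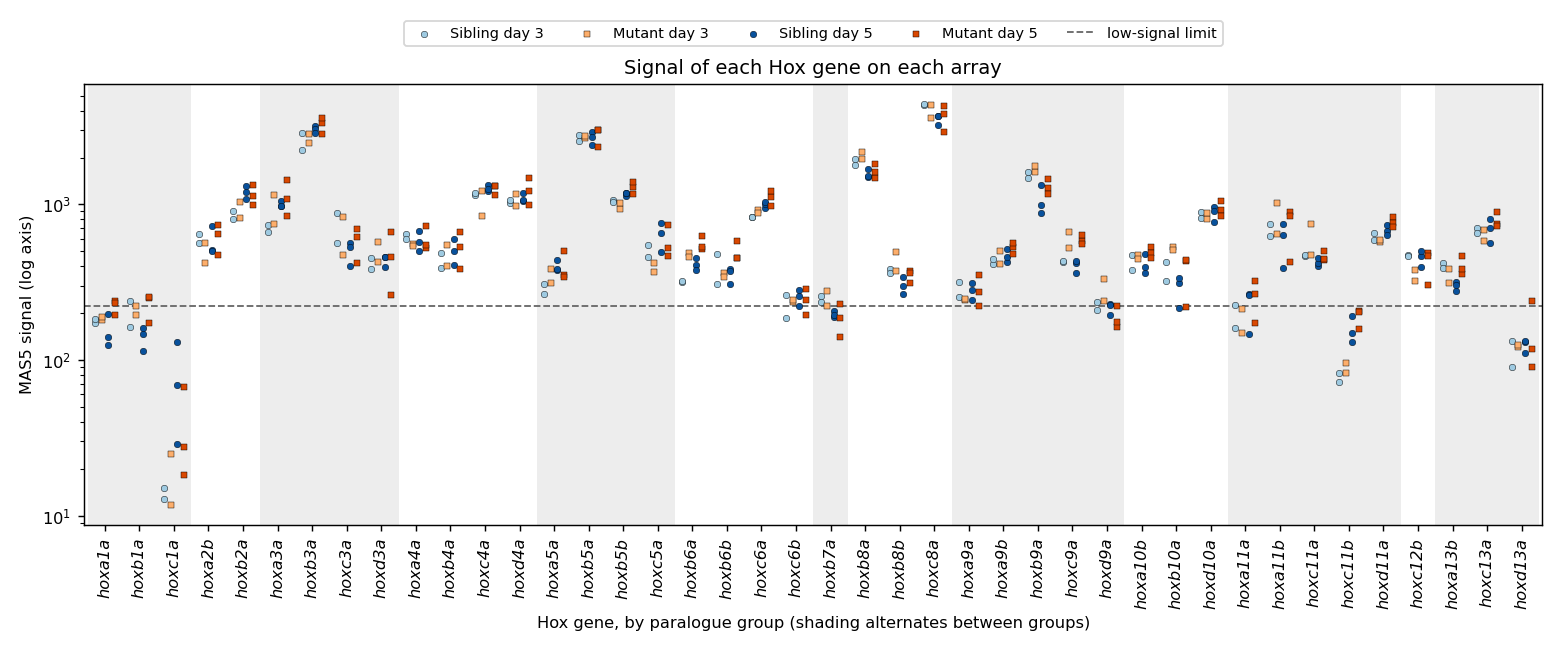
MAS5 signal (log axis) of each of the 42 Hox genes on each of the 10 arrays, ordered by paralogue group; points are pools, coloured by group, and the dashed line is the low-signal limit of 223. For most genes the 4 groups lie on top of each other, and the 8 genes with too low a mean to be tested lie around or under the line; levels of different genes are not comparable because each is read by its own probes.

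Of the 42 genes 34 passed the filter on low signals and were tested, and the other 8 did not. These are hoxa1a, hoxb1a and hoxc1a, which exhausts the measured genes of paralogue group 1, and hoxb7a, hoxd9a, hoxa11a, hoxc11b and hoxd13a. Among the 34, the spread between pools of a group was that of the array at large, with a median residual SD of 0.18 on the log2 scale for the Hox genes and 0.18 for all 11626 probe sets tested. A log2 difference here, and any fold taken from it, is on the log2(signal + 65) scale, which understates changes of low genes. In RNA of whole embryos, fewer cells of a type and less RNA per cell cannot be told apart.

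The main comparison asked how Hox genes of mutants compare with those of siblings over both days; the series' design text describes the mutants as having small heads and underdeveloped pharyngeal arches. Of the 34 genes, hoxb6a and hoxc9a rose in mutants and none fell, while 16.4% of all probe sets passed the same threshold (6.95% higher and 9.44% lower). Differences of the Hox genes were small. Their log2 differences ran from −0.24 (hoxc12b) to 0.44 (hoxc9a), with a median absolute size of 0.10 against 0.16 for all probe sets. For all 34 genes the 95% interval of the difference lay within 2-fold either way, as it did for 95.6% of all probe sets, and for 30 of 34 it lay within 1.5-fold, against 75.3%. The remaining genes in that respect are hoxb6a, hoxc9a, hoxb10a and hoxa11b, whose intervals reached past 1.5-fold on the higher side.

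**Figure D2:**
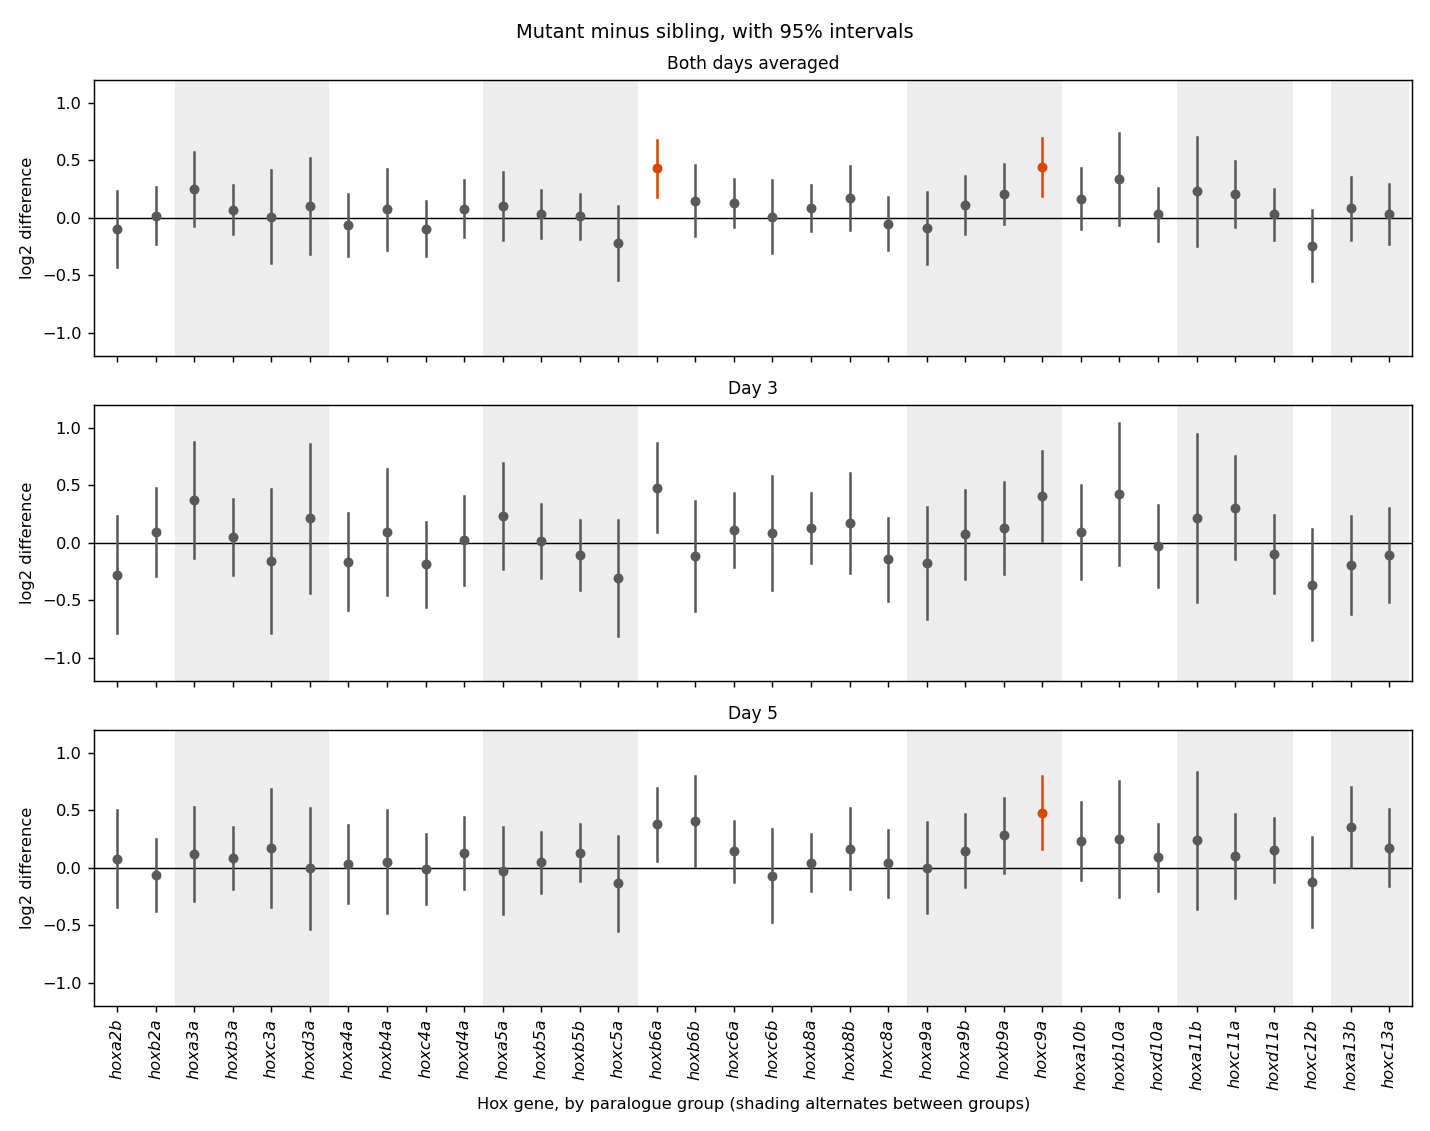
Log2 difference of mutants minus siblings for the 34 tested Hox genes, averaged over both days and on each day; points are limma estimates, bars are 95% intervals without adjustment, and orange marks an adjusted p under 0.05. Only hoxb6a and hoxc9a are orange in the averaged panel and hoxc9a on day 5, and all other intervals but those of hoxb6a and hoxc9a on day 3 and of hoxb6a, hoxb6b and hoxa13b on day 5 reach zero.

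hoxc9a belongs to a paralogue group that, in mice, sets the thoracic identity of spinal motor neurons. Its signal was 423 and 434 in the day 3 sibling pools and 521 and 667 in the day 3 mutant pools. On day 5 it was 419, 431 and 364 in siblings and 578, 636 and 553 in mutants. Every mutant pool of either day lay above every sibling pool of either day. The log2 difference over both days was 0.44 ± 0.12 (SE), a 1.36-fold difference with an interval of 0.19 to 0.69 (limma, adjusted p = 0.020). On day 5 alone it was 0.48 ± 0.15 (adjusted p = 0.046), and with the replicate number as a block that call was lost (adjusted p = 0.056). The day 5 call was also lost when any one of the 6 day 5 pools or either day 3 sibling pool was left out (adjusted p between 0.050 and 0.15).

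hoxb6a is a trunk gene whose mouse orthologue is expressed in spinal cord and lateral plate mesoderm. Its signal was 319 and 321 in day 3 siblings and 486 and 458 in day 3 mutants. On day 5 it was 409, 452 and 379 in siblings and 516, 629 and 528 in mutants, so again mutant and sibling pools of a day did not overlap. The log2 difference over both days was 0.43 ± 0.11 (SE), or 1.35-fold, with an interval of 0.18 to 0.68 (limma, adjusted p = 0.023).

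Both calls were lost in some fits without a single pool. Leaving out a day 3 pool leaves a single pool in its group, so a loss there does not show where the difference comes from. Without single pools the log2 difference stayed between 0.36 and 0.52 for hoxc9a and between 0.39 and 0.46 for hoxb6a. The averaged call of hoxc9a was lost when either day 3 sibling pool or mutant replicate 2 of day 3 was left out (adjusted p between 0.067 and 0.097). That of hoxb6a was lost when any of the 4 day 3 pools (adjusted p between 0.056 and 0.084) or sibling replicate 3 of day 5 (0.055) was left out. Moving the day 3 sibling pool with the conflicting strain label to the mutants ended both calls (adjusted p = 0.16 for hoxc9a and 0.21 for hoxb6a). The moved pool had a sart3 signal of 2516.5, where sibling pools ran from 1771 to 2586 and mutant pools from 105 to 809. The log2 difference itself stayed between 0.30 and 0.52 for hoxc9a and between 0.28 and 0.49 for hoxb6a in all alternatives that could test them. In the RefSeq annotation the span of the hoxb3a gene overlaps hoxb5a and hoxb6a, and that of hoxc3a overlaps hoxc8a and hoxc9a. The deposited table does not say which transcripts the probes match. hoxb3a and hoxc3a themselves stood at 0.07 ± 0.10 and 0.01 ± 0.19.

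None of the tested cluster neighbours and paralogues of these genes passed; hoxb7a and hoxd9a were too low to be tested, and hoxc10a was not analysed here. Around hoxb6a in the hoxba cluster, hoxb5a stood at 0.03 ± 0.10 and hoxb8a at 0.09 ± 0.09 (SE). Its paralogues hoxb6b, hoxc6a and hoxc6b stood at 0.15 ± 0.14, 0.13 ± 0.10 and 0.01 ± 0.15. In the hoxca cluster hoxc8a, next to hoxc9a, stood at −0.05 ± 0.11. Of the other group 9 genes, hoxa9a stood at −0.09 ± 0.14, hoxa9b at 0.11 ± 0.12 and hoxb9a at 0.21 ± 0.12. The adjusted p of these genes lay between 0.27 and 0.98.

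Among the anterior genes of groups 1 to 4, 10 of 13 were tested and none passed, against 16.4% of all probe sets. Their median was 0.04 and their range −0.10 to 0.25. hoxa2b and hoxb2a together give the second pharyngeal arch its identity in zebrafish. hoxa2b had signals of 645 and 562 in day 3 siblings, 564 and 418 in day 3 mutants, 510, 502 and 730 in day 5 siblings and 646, 475 and 736 in day 5 mutants. These groups overlap on both days, and the difference of −0.10 ± 0.15 had an interval of −0.43 to 0.23. hoxb2a, which is also a hindbrain gene, stood at 0.02 ± 0.11 with an interval of −0.23 to 0.26. The group 3 and 4 genes mark the posterior hindbrain and posterior arches. hoxb3a had mean signals of 2567 ± 458 (SD, n = 2) and 2650 ± 253 (SD, n = 2) on day 3 and 3044 ± 172 (SD, n = 3) and 3251 ± 381 (SD, n = 3) on day 5, siblings before mutants. hoxc4a stood at −0.10 ± 0.11 and hoxd4a at 0.08 ± 0.11. hoxa3a had the largest difference of the anterior genes, 0.25 ± 0.15 (adjusted p = 0.30), and its pools overlap on day 5. Its other tested probe set stood at −0.14 ± 0.16.

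In the central groups 5 to 8, 11 of 12 genes were tested, and hoxb6a was the only one called, against 16.4% of all probe sets. The median was 0.09 and the range −0.22 to 0.43. hoxb5b, a retinoic acid target that limits the heart field in zebrafish, differed by 0.01 ± 0.09 with an interval of −0.18 to 0.21, the narrowest among the Hox genes. hoxb5a, read at signals between 2332 and 3024 on all arrays, differed by 0.03 ± 0.10. hoxc8a, whose mouse orthologue acts in brachial and thoracic motor neurons, had signals of 4362 and 4390 in day 3 siblings and 4342 and 3598 in day 3 mutants. On day 5 it had 3251, 3684 and 3684 in siblings and 2919, 3827 and 4302 in mutants, with the mutant pools on both sides of the sibling pools. hoxc5a had the lowest value of this class, −0.22 ± 0.15 (adjusted p = 0.36).

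In the posterior groups 9 to 13, 13 of 17 genes were tested and hoxc9a was the only one called, against 16.4% of all probe sets. The median was 0.11 and the range −0.24 to 0.44. Of these 13 genes 11 had a positive difference, against 46.5% of all probe sets. After hoxc9a came hoxb10a (0.34 ± 0.18), hoxa11b (0.23 ± 0.22), hoxb9a and hoxc11a (0.20 ± 0.13), with adjusted p between 0.24 and 0.53. The values of hoxb10a, hoxb9a and hoxc11a come from A1 probe sets. Their S1 probe sets stood at 0.22 ± 0.18, 0.34 ± 0.18 and −0.02 ± 0.16. hoxd11a and hoxc13a are also read by A1 probe sets and have no other. hoxd10a and hoxd11a stood at 0.03 ± 0.11 and 0.03 ± 0.10. Group 13 holds genes that are needed for fin rays in zebrafish. Its tested genes did not pass: hoxa13b stood at 0.08 ± 0.13 and hoxc13a at 0.03 ± 0.12. hoxc12b stood lowest of all 34, at −0.24 ± 0.14 (adjusted p = 0.28), with 475 and 464 in day 3 siblings against 380 and 324 in day 3 mutants and overlapping pools on day 5.

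The differences of the 34 genes leaned to the higher side. Of them 27 were positive and 7 negative, with a median of 0.08, while 46.5% of all probe sets were positive, with a median of −0.02. That median of all probe sets moved to 0.04 with median centring and to 0.01 with quantile normalization, and the median of the Hox genes lay between 0.03 and 0.14 in all alternatives. All 8 tested genes of the hoxba cluster were positive, from 0.02 to 0.43, as were all 4 of hoxda and all 3 of hoxbb. Positive and negative genes numbered 5 and 3 in hoxca, 4 and 1 in hoxab, 2 and 2 in hoxaa and 1 and 1 in hoxcb. These counts rest on the probe sets shown. Other tested probe sets were negative for hoxa3a (−0.14), hoxd4a (−0.10), hoxb8a (−0.08) and hoxc11a (−0.02). They were positive for hoxb9a (0.34), hoxb10a (0.22), hoxc8a (0.12) and a further one of hoxb8a (0.14). Across the 34 genes the difference and the paralogue number had a Pearson r of 0.16 and a Spearman rho of 0.25; the genes share the same arrays, so this is a description only.

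**Figure D3:**
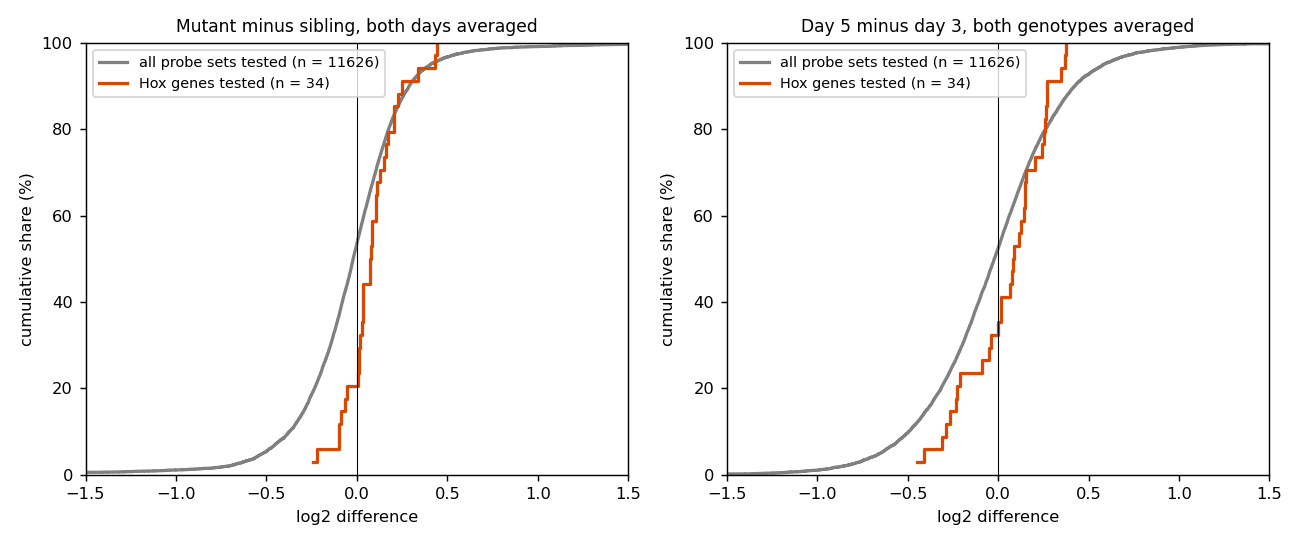
Cumulative share (%) of log2 differences for the 34 tested Hox genes (orange) and all 11626 tested probe sets (grey), for mutants minus siblings averaged over both days (left) and for day 5 minus day 3 averaged over siblings and mutants (right). The Hox genes run from −0.24 to 0.44 on the left and from −0.45 to 0.37 on the right, with medians of 0.08 in both panels.

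On day 3 none of the 34 genes passed (limma), while 2.05% of all probe sets passed (1.18% higher and 0.869% lower). At an unadjusted p under 0.05 there were 2 of the 34, against 14.7% of all probe sets. Those 2 are hoxb6a, at 0.48 ± 0.18 (adjusted p = 0.22), and hoxc9a, at 0.41 ± 0.18 (adjusted p = 0.31). Next came hoxc12b at −0.36 ± 0.22 (adjusted p = 0.50) and hoxa3a at 0.37 ± 0.23 (adjusted p = 0.50), whose mutant replicate 2 had 1149, against 744 in replicate 1 and 738 and 664 in siblings. Without mutant replicate 2 the difference of hoxa3a was 0.08. Its other tested probe set stood at −0.37 ± 0.25 on day 3, with 358.1 and 312.2 in mutants and 455.5 and 448.7 in siblings. Mutant and sibling pools of day 3 did not overlap for 16 of the 34 genes, 8 with mutants higher and 8 with mutants lower, against 21% and 28.1% of all probe sets. Intervals on this day are wide, with a median reach of 0.41 on the log2 scale to either side.

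On day 5 hoxc9a was the only Hox gene to pass, against 14.5% of all probe sets (6.47% higher and 8.07% lower). hoxb6a stood at 0.38 ± 0.14 (adjusted p = 0.10), hoxb6b at 0.41 ± 0.18 (0.15) and hoxa13b at 0.35 ± 0.16 (0.16). In these 4 genes every mutant pool lay above every sibling pool, against 15.1% of all probe sets. By the probe sets shown, no tested Hox gene had every mutant pool below every sibling pool, against 16.7%. The other tested probe set of hoxd4a did, with 300.5, 316.5 and 307.5 in mutants and 335.3, 453.9 and 380.4 in siblings. It stood at −0.28 ± 0.16 on day 5, against 0.13 ± 0.14 for the hoxd4a probe set shown. hoxb6a and hoxc9a were the only Hox genes with mutants above siblings without overlap on both days (8.03% of all probe sets), and none had mutants below on both (10.4%). Of the 34 genes 27 were positive on day 5, against 48.8% of all probe sets, and 20 on day 3, against 45.4%. These days share no pools, and across the 34 genes their differences had a Pearson r of 0.41 and a Spearman rho of 0.34. No value over all probe sets is set beside these, and genes share the arrays, so they describe these pools only.

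The mutant effect did not pass a test of its difference between the days for any Hox gene or any other probe set (0% of 11626, limma). At an unadjusted p under 0.05 there was 1 of the 34 Hox genes, against 6.64% of all probe sets. It is hoxa13b, which acts in fins and the hind end. Its signal was 419 and 389 in day 3 siblings against 383 and 311 in mutants, and 318, 276 and 306 in day 5 siblings against 469, 358 and 383 in mutants. Mutants thus lay below siblings on day 3 and above them on day 5, and the difference of the differences was 0.55 ± 0.25 (adjusted p = 0.75). hoxb6b (0.52 ± 0.28), hoxd11a (0.25 ± 0.20) and hoxb5b (0.24 ± 0.18) came next, with adjusted p between 0.78 and 0.86.

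A further comparison asked how Hox genes change between day 3 and day 5. In siblings hoxb9a, a posterior trunk and spinal cord gene, fell. By the probe sets shown, no other Hox gene passed, against 18.3% of all probe sets (8.24% higher and 10.1% lower). The signal of hoxb9a was 1470 and 1613 in day 3 siblings and 988, 876 and 1334 in day 5 siblings, without overlap. The log2 difference was −0.53 ± 0.17 (limma, adjusted p = 0.047). This call was lost without any one of the sibling pools except replicate 3 of day 5 (adjusted p between 0.13 and 0.27), without either day 3 mutant pool or mutant replicate 1 of day 5 (0.052 to 0.058), and with median centring (0.053) or quantile normalization (0.064), and the other tested probe set of hoxb9a stood at −0.27 ± 0.25 (adjusted p = 0.49). In mutants hoxb9a had 1618 and 1774 on day 3 and 1274, 1166 and 1450 on day 5, a difference of −0.38 ± 0.17 (adjusted p = 0.14). Sibling pools of the 2 ages did not overlap for 7 genes with day 5 higher and for 7 with day 5 lower, against 25.2% and 30.7% of all probe sets.

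In mutants none of the 34 genes passed between the days (limma), against 19% of all probe sets (8.58% higher and 10.4% lower). At an unadjusted p under 0.05 there were 4, against 32.8% of all probe sets. They are hoxb9a, hoxb5b (0.37 ± 0.13, adjusted p = 0.059), hoxd11a (0.37 ± 0.14, 0.092) and hoxb8a (−0.33 ± 0.13, 0.095). Mutant pools of the 2 ages did not overlap for 8 genes with day 5 higher and 4 with day 5 lower, against 21.1% and 23.3% of all probe sets. The pools of the 2 ages did not overlap in both siblings and mutants for 6 genes. hoxb5b, hoxb6a and hoxc6a were higher on day 5 (13.2% of all probe sets were separated this way), and hoxb8a, hoxb8b and hoxb9a were lower (16.4%).

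Averaged over siblings and mutants, a contrast added after the values had been seen, 5 of 34 Hox genes passed, 3 higher and 2 lower on day 5, against 34.6% of all probe sets (15.8% higher and 18.8% lower). The hindbrain gene hoxb2a rose by 0.37 ± 0.11 (adjusted p = 0.023), with 810 and 908 in day 3 siblings, 815 and 1039 in day 3 mutants, 1199, 1088 and 1308 in day 5 siblings and 1133, 994 and 1328 in day 5 mutants. Its only overlap was between 2 mutant pools. The other hoxb2a probe set was too low to be tested, with means of 238 and 216 in siblings and mutants on day 3 and 156 and 271 on day 5, and with the mean of both probe sets hoxb2a stood at 0.13 (adjusted p = 0.41). hoxc6a, a trunk gene whose mouse orthologue marks brachial motor neurons, rose by 0.27 ± 0.10 (adjusted p = 0.048), from 826, 825, 917 and 876 to 942, 1009, 1030, 1117, 983 and 1228, siblings before mutants. hoxb5b rose by 0.26 ± 0.09 (adjusted p = 0.044), from 1070, 1037, 935 and 1014 to 1138, 1175, 1183, 1162, 1296 and 1396. All 6 day 5 pools of both genes lay above all 4 day 3 pools.

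By the probe sets shown, the genes that fell with age were hoxb9a (−0.45 ± 0.12, adjusted p = 0.011) and hoxb8a (−0.29 ± 0.09, adjusted p = 0.028), a gene whose mouse orthologue acts in dorsal spinal cord. The other tested probe set of hoxa3a also fell, at −0.50 ± 0.16 (limma, adjusted p = 0.028). The hoxa3a probe set shown stood at 0.35 ± 0.15 (adjusted p = 0.089). hoxb8a had 1802 and 1956 in day 3 siblings, 1956 and 2158 in day 3 mutants, 1504, 1531 and 1695 in day 5 siblings and 1468, 1820 and 1605 in day 5 mutants. The groups of a genotype did not overlap, while the highest day 5 mutant pool lay above the lowest day 3 sibling pool. Its other probe sets stood at 0.03 ± 0.13 and −0.05 ± 0.24, so the fall rests on 1 of 3 probe sets, and with median centring or quantile normalization hoxb8a no longer passed. Leaving out sibling replicate 2 of day 3 kept only hoxb2a of the 5, leaving out sibling replicate 1 of day 3 kept only hoxb9a, and leaving out sibling replicate 1 or 2 of day 5 kept only hoxb2a and hoxb9a. Leaving out mutant replicate 1 of day 3 ended all 3 rises (hoxb2a adjusted p = 0.11), and leaving out sibling replicate 3 of day 5 ended that of hoxb2a as well (0.054). hoxb5b and hoxc6a were lost in each of these, and also when either day 3 mutant pool, mutant replicate 3 of day 5 or sibling replicate 3 of day 5 was left out. The call of hoxb9a was lost with its S1 probe set (−0.23 ± 0.18, adjusted p = 0.35).

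**Figure D4:**
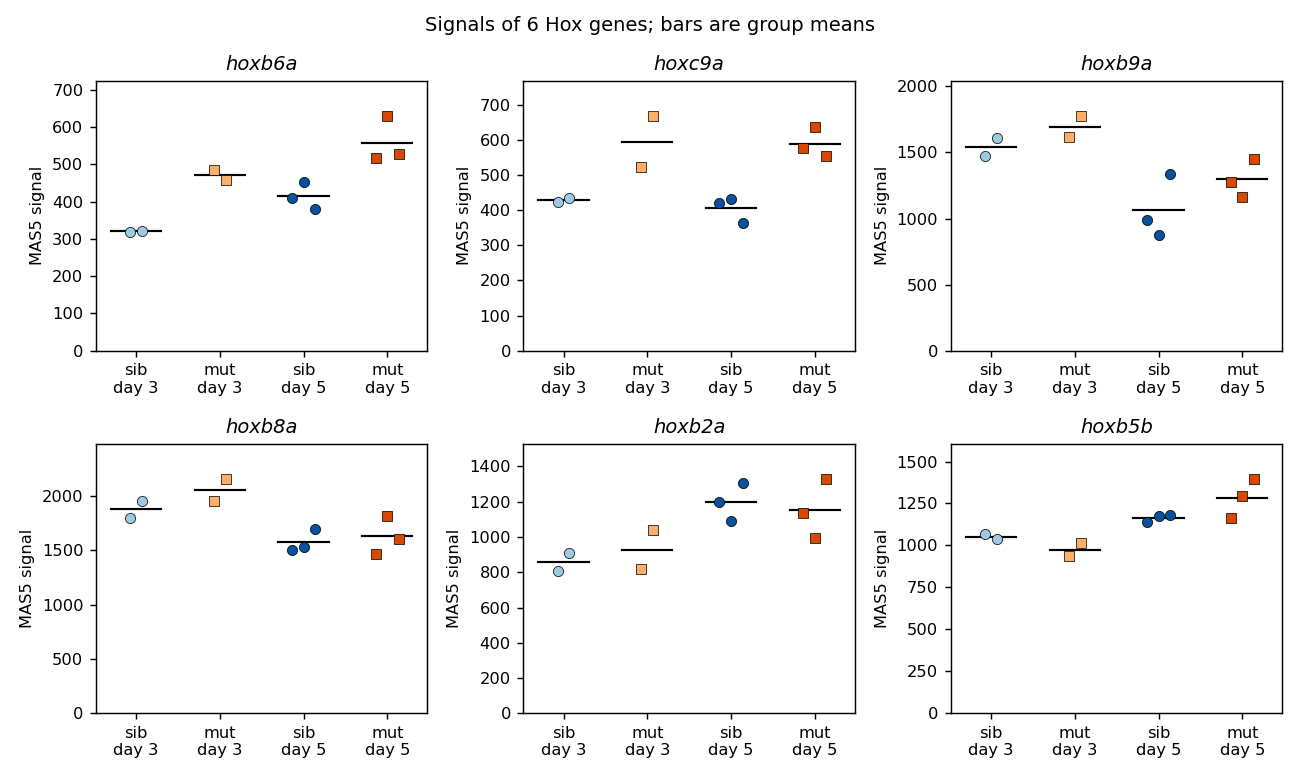
MAS5 signal (linear axis from 0) of the genes called between mutants and siblings (hoxb6a and hoxc9a) and of 4 of the 5 genes called between the ages (hoxb9a, hoxb8a, hoxb2a and hoxb5b); points are pools and bars are group means. In hoxb6a and hoxc9a mutant pools lie above sibling pools of the same day, while in the other 4 the day 5 pools stand apart from the day 3 pools more than mutants do from siblings.

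Across the 34 genes the change with age in siblings and that in mutants, which share no pools, had a Pearson r of 0.66 and a Spearman rho of 0.62, near the 0.72 and 0.70 across all probe sets. In siblings 7 of 10 anterior genes and 6 of 11 central genes stood higher on day 5, against 4 of 13 posterior genes, with medians of 0.09, 0.14 and −0.05. Of all probe sets 46.5% stood higher on day 5 in siblings. Among the central genes, hoxb8a, hoxb8b and hoxc8a of group 8 were all lower, at −0.24, −0.26 and −0.30. None of them passed (limma, adjusted p between 0.185 and 0.345). The other tested probe sets of hoxb8a stood at 0.08 ± 0.19 and −0.19 ± 0.34, and that of hoxc8a at −0.35 ± 0.25. In mutants the medians of the anterior, central and posterior genes were 0.20, 0.15 and 0.15. There 8 of 10, 8 of 11 and 8 of 13 genes stood higher, against 48.4% of all probe sets. The change in siblings and the paralogue number had a Pearson r of −0.45 over the 34 genes, and the change in mutants one of −0.26. Genes share the arrays, so these values describe these pools only.

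**Figure D5:**
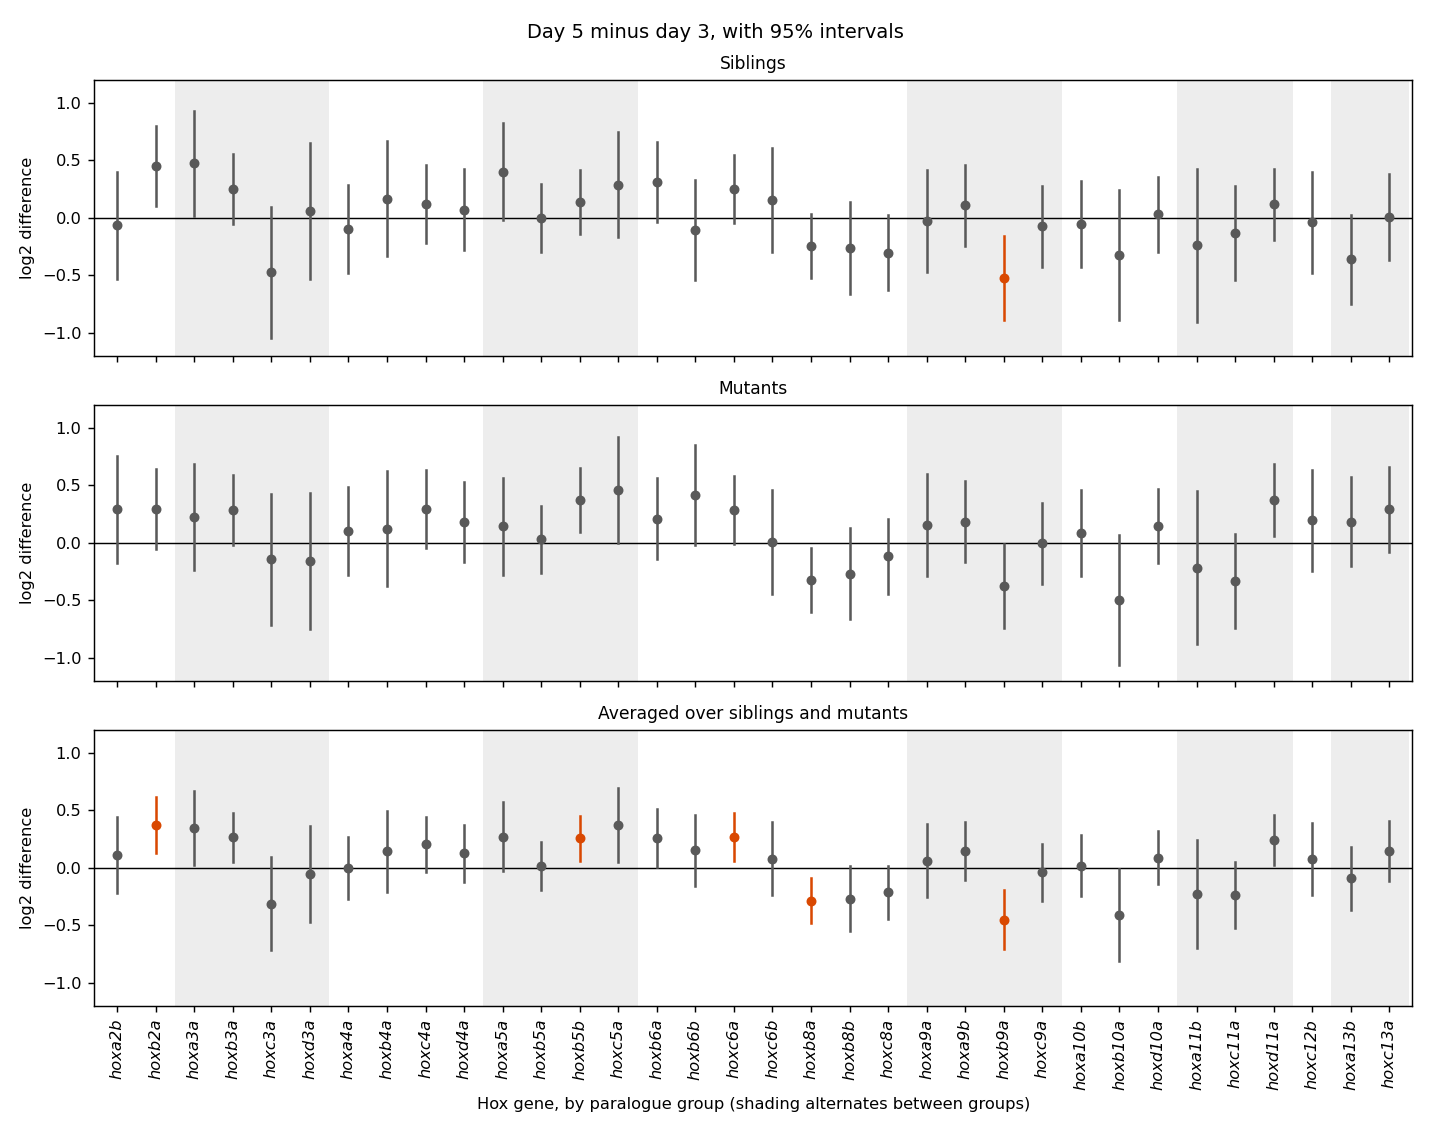
Log2 difference of day 5 minus day 3 for the 34 tested Hox genes in siblings, in mutants and averaged over both; points are limma estimates, bars are 95% intervals without adjustment, and orange marks an adjusted p under 0.05. The averaged panel has 5 orange genes, hoxb2a, hoxb5b and hoxc6a above zero and hoxb8a and hoxb9a below it.

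The 8 untested genes are given by their signals only. hoxb1a, which specifies a hindbrain segment and its facial motor neurons, lay between 114 and 254, and hoxa1a between 125 and 240. On day 5 hoxb1a had 147, 160 and 114 in siblings and 250, 173 and 254 in mutants, without overlap, while on day 3 its pools overlapped, as those of hoxa1a did on both days. Of the probe sets tested, 15.1% had mutants above siblings without overlap on day 5 and 21% on day 3. hoxc11b had 72.5 and 82.0 in day 3 siblings, 82.0 and 95.8 in day 3 mutants, 192, 131 and 150 in day 5 siblings and 207, 159 and 202 in day 5 mutants. All its day 5 pools lay above all its day 3 pools, yet all 10 values lie under 223, so the size of this difference is uncertain. hoxc1a was the lowest, between 11.7 and 130. hoxb7a lay between 141 and 278, hoxd9a between 164 and 334, hoxa11a between 148 and 322 and hoxd13a between 89.5 and 241. On day 3 hoxd9a had 208 and 234 in siblings and 334 and 240 in mutants, without overlap, while its day 5 pools overlapped.

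Several probe sets of a gene were on the array for 13 of the 42 genes, and they did not always move together. For hoxa3a the probe set shown stood at 0.47 ± 0.21 between the sibling ages (adjusted p = 0.14) and the other at −0.73 ± 0.23 (adjusted p = 0.041). For 7 genes, among them hoxb9a and hoxc8a, the probe set shown has an A1 in its name, which in Affymetrix naming marks probes for the opposite strand of the reference entry. Whether such probes read the Hox transcript depends on how that entry was oriented, which the files do not say.

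Genes that act with the Hox genes were compared over both days, where 16.4% of all probe sets passed. Of 13 measured TALE cofactors 1 fell, pbx1a (−0.34 ± 0.10, adjusted p = 0.041), and none rose, with a median of −0.14. Of 17 genes of the retinoic acid pathway 2 rose and 1 fell, with a median of −0.02. They are dhrs3a (0.55 ± 0.15), which reduces retinaldehyde, crabp2b (0.37 ± 0.09), which binds retinoic acid in cells, and nrip1b (−0.42 ± 0.12), a nuclear receptor corepressor. Of 19 Polycomb and Trithorax genes 2 rose and 1 fell, with a median of 0.08. The histone methyltransferase gene kmt2ba rose by 0.81 ± 0.14 and wdr5, a subunit of such enzymes, by 0.32 ± 0.07, while the Polycomb gene cbx2 fell by 0.35 ± 0.10. Of 4 ParaHox and cluster-neighbour genes 1 rose, lnpa (0.43 ± 0.12, adjusted p = 0.028), whose mammalian orthologue lies beside the HoxD cluster, and the median was 0.07.

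Patterning genes of the body regions are given against the same background, 6.95% of all probe sets higher and 9.44% lower; differences between these lists were not tested. Of 10 forebrain and midbrain factors 5 fell and none rose, with a median of −0.28: six3a (−0.59 ± 0.11), otx2b (−0.46 ± 0.10), dmbx1a (−0.42 ± 0.10), dlx2a (−0.42 ± 0.10) and six3b (−0.30 ± 0.09). Of 10 genes of the hindbrain and its boundary 2 fell, with a median of −0.04: en2b, expressed at the midbrain-hindbrain boundary (−0.56 ± 0.15), and egr2b, of hindbrain segments (−0.45 ± 0.12). Of 6 spinal cord and motor neuron genes 1 fell, isl1a (−0.54 ± 0.08, adjusted p = 7.2e-04), with a median of −0.05. Of 11 fin genes 1 rose, the mesenchyme factor prrx1b (0.31 ± 0.10, adjusted p = 0.047), with a median of 0.13, and of 5 tail bud and axial mesoderm genes none passed (limma), with a median of 0.14. On day 3 no gene of these or the preceding lists passed (limma), against 2.05% of all probe sets. On day 5 the background was 6.47% of all probe sets higher and 8.07% lower. There otx2b stood at −0.95 ± 0.13 (adjusted p = 2.9e-04), against 0.04 ± 0.15 on day 3. The 17 retinoic acid genes held 3 rises and 1 fall on day 5. dhrs3a stood at 1.01 ± 0.19 (adjusted p = 0.0036), against 0.08 ± 0.23 on day 3. crabp2a (0.57 ± 0.17, adjusted p = 0.041) and crabp2b (0.50 ± 0.12, 0.015) also rose, and rarab fell (−0.40 ± 0.12, 0.049). pbx3b was the only TALE cofactor to fall on day 5 (−0.46 ± 0.12, 0.023), and prrx1a the only fin gene to rise (0.37 ± 0.10, 0.024). Of the 10 genes in the hindbrain list 3 fell on day 5 (egr2b, en2a and en2b), and mafbb rose by 0.55 ± 0.12 (adjusted p = 0.0082), against −0.18 ± 0.14 on day 3. The difference between the days passed for no probe set, as given above. Whether the values of these lists relate to those of the Hox genes was not tested.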

How the data were processed

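Per the submitters' processing notes the authors used MAS5, and the deposited table holds a linear intensity for each probe set on each array. The MAS5 version and the detection calls were not used here. The arrays' means after trimming 2% at either end agreed to 1500.4, so the deposited intensities are on a common scale, and no further scaling was applied. A difference is therefore relative to the rest of the array. Of 15617 probe sets 115 controls were left out. Platform annotation of 2016 named the genes, and no coordinates are given because the files state no build.

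The analysis used log2(signal + 65), a pseudocount equal to 10% of the median over all values (647.8). The lowest 25% of probe sets by mean log2 value was left out, which kept 11626. All 10 arrays entered 1 linear model with 4 group means (limma 3.58.1 under R 4.3.3), with a mean-variance trend and Benjamini-Hochberg adjustment over all probe sets (threshold 0.05), and the script was tested on simulated data. Errors of log2 differences are standard errors. Replicates are labelled biological pools; p-values reflect their spread, and the number of arrays limits the precision. Full statistics were given, per comparison, for Hox genes past the threshold or, where none passed, for the 4 with the smallest p. The members, the gene lists and the rule for named genes were chosen with earlier results of these data known.

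Replicate numbers are shared between mutants and siblings. Deviations of same-numbered pools from their group means correlated at 0.22 to 0.27 in the 3 pairs of day 5 and at −0.05 in both pairs of day 3, so a pairing was seen in the data of day 5 only; the labels do not state one. The fit with the number as a block is given where it changes a call. Alternatives were other pseudocounts, filters and scalings, array weights, no trend, the mean of a gene's probe sets, each pool left out, other groupings of the pools with conflicting labels and, added after seeing the data, S1 in place of A1 probe sets and the age contrast averaged over both genotypes.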

Additional observations from a re-analysis of the deposited data

How the results depend on the processing

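Differences of single Hox genes were followed through the alternatives only for the genes given full statistics in a comparison. None of these changed sign, though that of hoxa3a on day 3 fell as low as 0.0006. Signs of the remaining Hox genes were not followed. The median of the Hox genes on day 3 (0.063) reached −0.009 when single pools were left out. Between the sibling ages their median (0.003) reached −0.042 in the same way. The count of Hox genes called in the averaged comparison of mutants with siblings (2) became 0 with the lowest 50% of probe sets left out, which leaves 15 Hox genes without hoxb6a and hoxc9a, and 0 when the day 3 sibling pool with a mutant strain label was moved to the mutants; leaving out single pools gave 0 to 3. The single call of day 5 became 0 with no filter, the lowest 50% left out, array weights, the replicate block, that relabelling, or both pools with a day 4 source name left out, and leaving out single pools gave 0 to 1; the cause was not tested. The replicate block left the other counts of mutants against siblings as they were (2 averaged, 0 on day 3 and 0 between the days), and day 3 and the day difference stayed at 0 in all 23 alternatives. Between the ages in siblings the count (1) became 0 with no filter, median centring, no trend, the mean of a gene's probe sets, S1 in place of A1 probe sets, the relabelling, or the day 4 pools left out, became 3 (hoxa3a, hoxb2a and hoxb9a) with array weights, and was 0 to 1 without single pools; with quantile normalization the 1 call was another gene, hoxb2a, which rose. In mutants the count (0) became 1 with no filter (hoxc11b), and 1 (hoxb5b) with the lowest 50% left out, quantile normalization or the mean of a gene's probe sets, and was 0 to 1 without single pools. Averaged over siblings and mutants the count (5) became 3 with the mean of a gene's probe sets, 2 with the relabelling and 2 without the day 4 pools, and 1 to 6 without single pools. For all probe sets, moving that pool took the averaged count from 1906 to 548, the day 3 count from 238 to 0 and the sibling age count from 2129 to 265. The sart3 signal of that pool lay among those of the siblings. Array weights gave 505 on day 3 and 3653 between the sibling ages. Without single pools the counts were 969 to 2284 averaged, 48 to 400 on day 3, 1045 to 2032 on day 5 (main 1690), 377 to 2376 between the sibling ages and 962 to 2213 between the mutant ages (main 2211). The day difference, with 0 calls among all probe sets, gave 10 with the replicate block, 8 with the larger pseudocount, 6 with array weights, 3 with the mean of a gene's probe sets, 26 without the day 4 pools and 0 to 50 without single pools. No paired fit was possible between the ages, because pools of the 2 ages share only a number. Signals near 223, where MAS5 is noisy, limit hoxc6b, hoxa9a and the untested genes most.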
